A study of Mus musculus with 46 samples.

Results

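Of 7181 genes with expression values in mouse embryos, 10 were high in the wild-type (WT) inner cell mass (ICM) at embryonic day (E) 3.5 and near 0 in the WT epiblast at E5.5. They were chosen by a mean of at least 100 FPKM over the 7 WT ICM libraries and a mean under 5 FPKM over the 3 WT E5.5 libraries. FPKM is the number of sequenced fragments scaled by transcript length and by the mapped fragments of the library. The 2 cutoffs were met by 16 genes, and 6 of them were left out because their names start with Pramel, Slc, Zfp, Ly6 or Krt. The 10 genes are AA467197, BC048679, Calcoco2, Crxos1, Fbxl20, Fbxo15, Pemt, Sycn, Timd2 and Trim43a.

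The libraries came from WT embryos and from embryos with a knockout (KO) of Rbbp5, a core subunit of the complexes that methylate histone H3 at lysine 4. Knockouts were made in zygotes, either by injecting Cas9 mRNA with a guide RNA into WT zygotes or by injecting Cre mRNA into zygotes whose Rbbp5 alleles were floxed. The sources used here do not say which method made each library, nor whether WT zygotes were injected. Embryos were cultured in KSOM medium to the blastocyst, or moved to pseudopregnant females at the 2-cell stage, and the ICM was freed of trophectoderm by immunosurgery. Single-embryo ICM gave 7 WT and 7 KO libraries, hand-dissected E5.5 epiblast gave 3 WT and 3 KO libraries, and single E4.5 cells gave 7 WT and 3 KO epiblast and 1 WT and 2 KO primitive endoderm libraries. The embryo libraries are labelled as single embryos, while the E4.5 cells carry no embryo name, so each E4.5 group counts as 1 sample and has no test. The targeted gene was not analysed here, and the genotypes are taken from the labels unchecked.

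Between implantation stages the ICM gives rise to the epiblast and the primitive endoderm, and the epiblast passes from naive to primed pluripotency. Many genes that the blastocyst uses are silenced in that passage, by loss of their activators and by marks on DNA and histones, while trophoblast, the outer lineage, goes on using some of them. The 10 genes have no single function. Fbxo15, an F-box protein, is best known as a reporter gene for embryonic stem cell identity, and Crxos1 (Crxos in RefSeq) encodes a homeobox protein of early embryos and embryonic stem cells. Fbxl20 is another F-box protein, the part of a ubiquitin ligase that picks the substrate, Trim43a belongs to the tripartite motif family, and Calcoco2 (NDP52) is an autophagy receptor. Pemt makes phosphatidylcholine from phosphatidylethanolamine, AA467197 (Nmes1) is a small mitochondrial protein related to a respiratory chain subunit, Timd2 (TIM-2) is a surface receptor for ferritin, and Sycn (syncollin) is a protein of secretory granules. No role is given here for BC048679.

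All 10 genes matched a protein-coding gene of the RefSeq annotation of GRCm38.p6. Chromosome 11 held 4 of them: Timd2 at 46668960 to 46707107, Pemt at 59970614 to 60046561, Calcoco2 at 96098916 to 96124560 and Fbxl20 at 98082554 to 98150921. That chromosome held 8.85% of the 6833 table genes that matched the annotation. Chromosome 7 held 3: Crxos1 at 15882617 to 15904030, Sycn at 28540885 to 28542210 and BC048679 at 81494274 to 81498330. Another 2 were AA467197 on chromosome 2 at 122637887 to 122641076 and Trim43a on chromosome 9 at 88580891 to 88588824. Several spans overlap another gene, so reads may have been shared. Calcoco2 meets Ttll6 at one end, Fbxo15 contains Timm21, AA467197 contains the miRNA gene Mir147, and Trim43a also has near-identical copies, so its counting is uncertain.

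The promoters of 3 genes are shown, those of the genes on the plus strand with a single promoter window in RefSeq. In the KO E5.5 libraries AA467197 read 37.4 to 185.3 FPKM, and Sycn and Trim43a at most 0.842 and 1.26 FPKM. A link between promoter sequence and these levels was not tested. AA467197 and Trim43a lay wholly above the WT range there, and Sycn did not. Each is the 250 bases before the RefSeq start site on the plus strand of GRCm38.p6, with CpG sites in capitals.
AA467197: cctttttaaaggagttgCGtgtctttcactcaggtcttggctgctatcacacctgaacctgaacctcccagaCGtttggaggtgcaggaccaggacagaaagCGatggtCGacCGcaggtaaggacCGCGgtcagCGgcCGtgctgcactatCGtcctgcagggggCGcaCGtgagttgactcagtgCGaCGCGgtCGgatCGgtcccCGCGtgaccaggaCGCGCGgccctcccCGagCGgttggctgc
Sycn: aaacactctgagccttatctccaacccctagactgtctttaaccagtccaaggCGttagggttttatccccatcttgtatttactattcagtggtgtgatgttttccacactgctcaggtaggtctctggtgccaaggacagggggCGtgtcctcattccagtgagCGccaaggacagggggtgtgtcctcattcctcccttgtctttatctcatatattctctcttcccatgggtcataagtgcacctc
Trim43a: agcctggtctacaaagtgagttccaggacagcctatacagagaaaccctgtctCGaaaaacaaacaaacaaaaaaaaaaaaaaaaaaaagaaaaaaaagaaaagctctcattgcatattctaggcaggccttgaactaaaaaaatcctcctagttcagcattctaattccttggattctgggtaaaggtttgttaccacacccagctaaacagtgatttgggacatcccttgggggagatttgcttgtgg
They lie at chr2:122637637-122637886, chr7:28540635-28540884 and chr9:88580641-88580890, and hold 24, 3 and 1 CpG sites.

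Promoter windows of 300 bases, from 250 before to 50 after the start, were found for 8 of the 10 genes (12 windows). AA467197 had 29 CpG sites and Fbxl20 33, as many as or more than in 88.3% and 92.3% of all 32851 windows. The other 6 genes had at most 6 sites in a window, and the median was 3 over the 12 windows against 7 over all windows. The 8 genes thus had promoters of both kinds, CpG-rich and CpG-poor. Short motifs were searched on both strands. The octamer ATGCAAAT was in none of the 12 windows (1.74% of all windows), nor was the ESRRB motif TCAAGGTCA (0.423%) or the TFAP2 motif GCCNNNGGC (16.6%). The KLF motif CCACACCC was in the Trim43a window (3.56% of all windows). The GATA motif AGATAA was in BC048679, Pemt and Sycn windows (11.2%), and the TEAD motif GGAATG in Pemt and Sycn windows (14.7%). These are matches of letters and not binding sites.

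In WT ICM the level per length was highest for Calcoco2, at 1914 ± 244.4 FPKM (SD, n = 7), followed by Crxos1 at 1310 ± 274.4. Timd2 (1060 ± 711.7) and Pemt (1044 ± 910.3) came next, with library ranges that overlap those of Crxos1. Fbxo15 (606.0 ± 130.6), AA467197 (585.8 ± 230.7) and Sycn (520.0 ± 233.1) formed a middle group with overlapping ranges, and Trim43a stood at 324.3 ± 145.5. The lowest were BC048679 (125.5 ± 53.2) and Fbxl20 (117.1 ± 39.2), which did not differ beyond their spread. Calcoco2 overlapped in range with Crxos1, and Trim43a with the middle group above it. Together the 10 genes made up 2.00% to 3.87% of the summed FPKM of a WT ICM library and 0.00387% to 0.00479% of a WT E5.5 library. These values chose the genes and are given without a test.

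At E5.5 the WT means ran from 0 for BC048679 and Sycn, which are listed at 0 in all 3 libraries, to 3.67 ± 0.869 FPKM for Pemt (SD, n = 3). Fbxl20 kept 3.40 FPKM, or 2.91% of its WT ICM mean. The other 9 were at 0.414% of the ICM mean or less. Fewer cells of a type and less RNA per cell cannot be told apart in such bulk samples. Near the ICM cutoff, Fbxl20, BC048679 and Trim43a lay nearest inside, and Stmn3 (92.8 FPKM), Wfdc15a (90.8) and Anxa2 (85.6) just outside. Near the E5.5 cutoff, Pemt, Fbxl20 and Fbxo15 (2.51 FPKM) lay inside, and Elf3 (5.49), B2m (6.05) and Creg1 (7.17) outside.

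**Figure D1:**
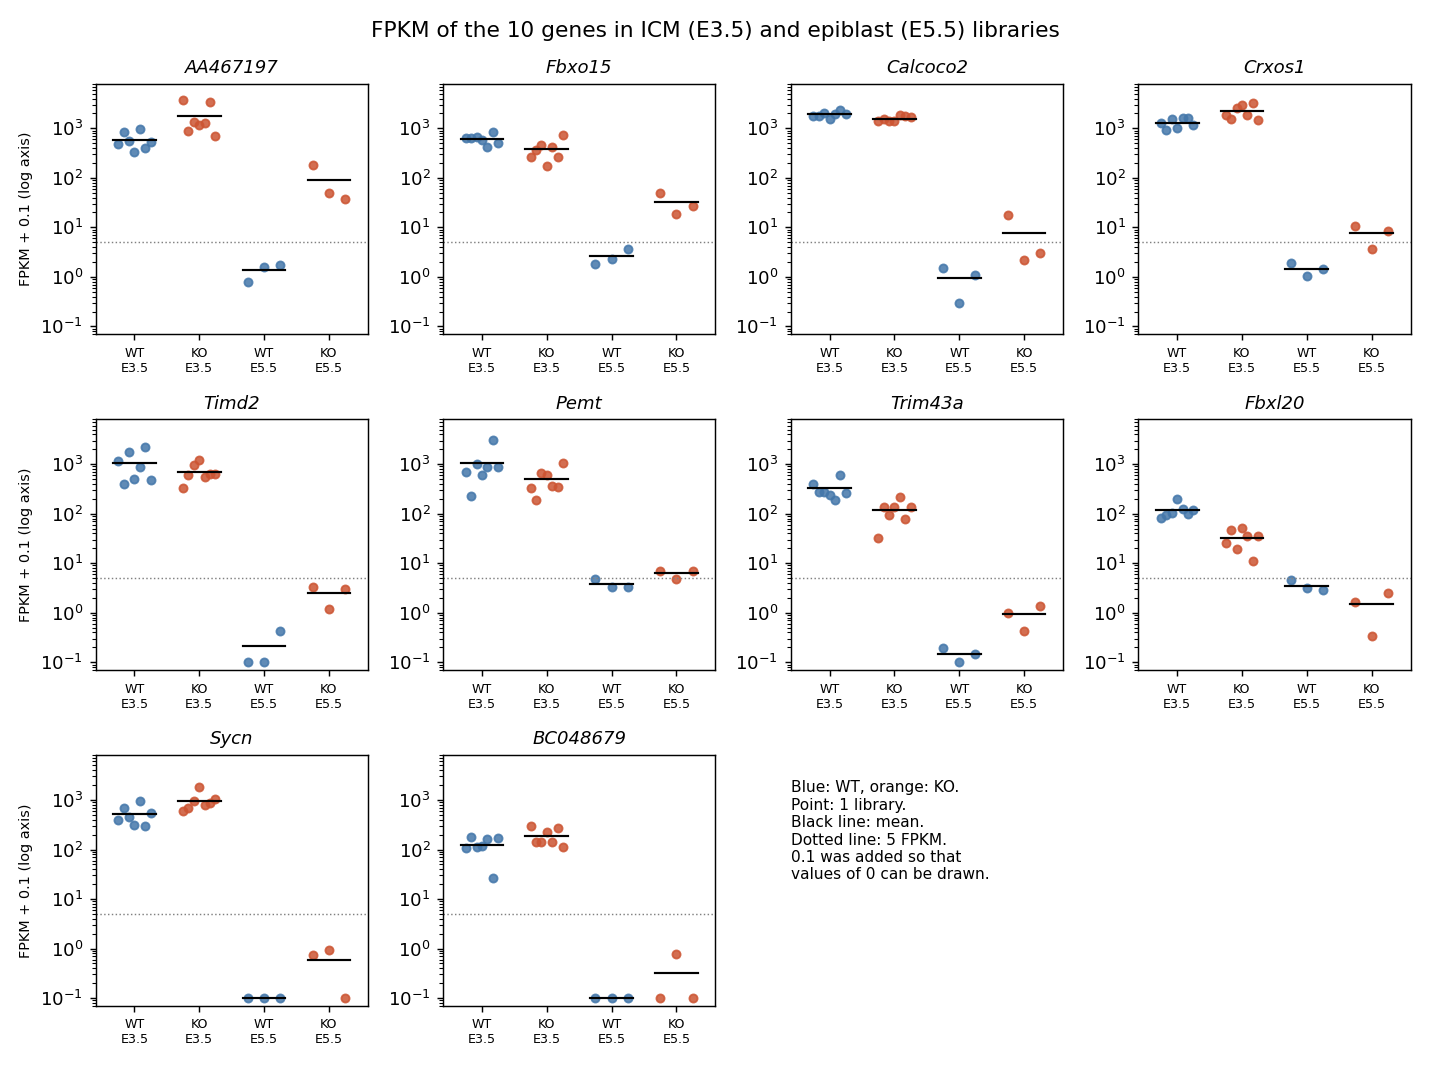
FPKM of the 10 genes in each embryo library (log axis, FPKM + 0.1), for WT and KO ICM at E3.5 and WT and KO epiblast at E5.5, with 1 point per library and a line at the group mean. In KO E5.5 libraries AA467197 lies at 37.4 to 185.3 FPKM and Fbxo15 at 18.6 to 50.5, while Sycn and BC048679 lie under 1.

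The 10 genes did not vary together among WT ICMs. WT library 6 was the highest of 7 for Calcoco2, Crxos1, Fbxo15, Pemt, Timd2 and Trim43a and the lowest for BC048679 (26.1 FPKM) and Sycn (292.8). WT library 2 had the lowest Pemt (227.7), Timd2 (407.0) and Crxos1 (933.0) and the highest BC048679 (179.1). The spread was widest for Pemt, whose highest library was 13.3 times its lowest, and narrowest for Calcoco2, at 1.51 times. Among the KO ICMs the widest was Trim43a, at 6.93 times, and the narrowest again Calcoco2, at 1.35 times.

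At E4.5, single WT epiblast cells held low levels of most of these transcripts. The summed FPKM of the 10 genes was 89.0 to 276.1 in the 7 WT cells, and 2 to 4 of the genes reached 5 FPKM in a cell. Across the WT cells Fbxo15 read 30.8 to 81.2 FPKM and Calcoco2 4.0 to 215.3. AA467197 was at 2.59 to 4.85 and Timd2 at 0.356 to 1.5, and BC048679 was listed at 0 in all 7 cells. Levels were not tested between single cells and embryos, since the columns for the 2 kinds of library may have been made separately.

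In the 3 KO epiblast cells of E4.5 the summed FPKM of the 10 genes was 3751, 2492 and 648.7, each above the 7 WT cells. AA467197 stood at 264.2, 179.7 and 7.74 FPKM in cells 1, 2 and 3. Calcoco2 was at 2591, 1394 and 504.7, and Fbxo15 at 769.3, 316.1 and 83.4. For these 3 genes each KO cell was above each WT cell, but for Fbxo15 the margin in cell 3 was small (83.4 against a highest WT value of 81.2). Of the 8 members with a mean of at least 1 FPKM over these cells, 3 lay wholly above the WT cells and 0 wholly below. Of 5871 genes, 2.88% lay wholly above and 3.99% wholly below, and with 1 sample per group this is a description and not a test.

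Other genes were high in some KO cells only. Trim43a was at 103.5 and 480.2 FPKM in KO cells 1 and 2 and at 0.682 in cell 3, against 0 to 6.09 in WT cells. Crxos1 exceeded the WT range of 3.28 to 23.7 in cell 2 alone (66.3), and Sycn exceeded 0 to 0.640 in cell 3 alone (44.6). Pemt read 2.15, 54.8 and 0 in the 3 KO cells, with 1 value above the highest WT cell (42.6). Timd2 (0.591, 0.650 and 1.2) and Fbxl20 (listed at 0 in all 3) stayed within the WT range, and BC048679 was listed at 0 in every cell of both genotypes. KO cell 3 was thus the one nearest to WT for AA467197, Fbxo15, Calcoco2 and Trim43a. Without it, 4 of 7 members with a mean of at least 1 FPKM lay wholly above the WT cells (6.43% of 5864 genes). Wholly below lay 0 (8.59%). Cell 3 was singled out by the members' own values, which favours a higher count, so nothing is read from it.

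**Figure D2:**
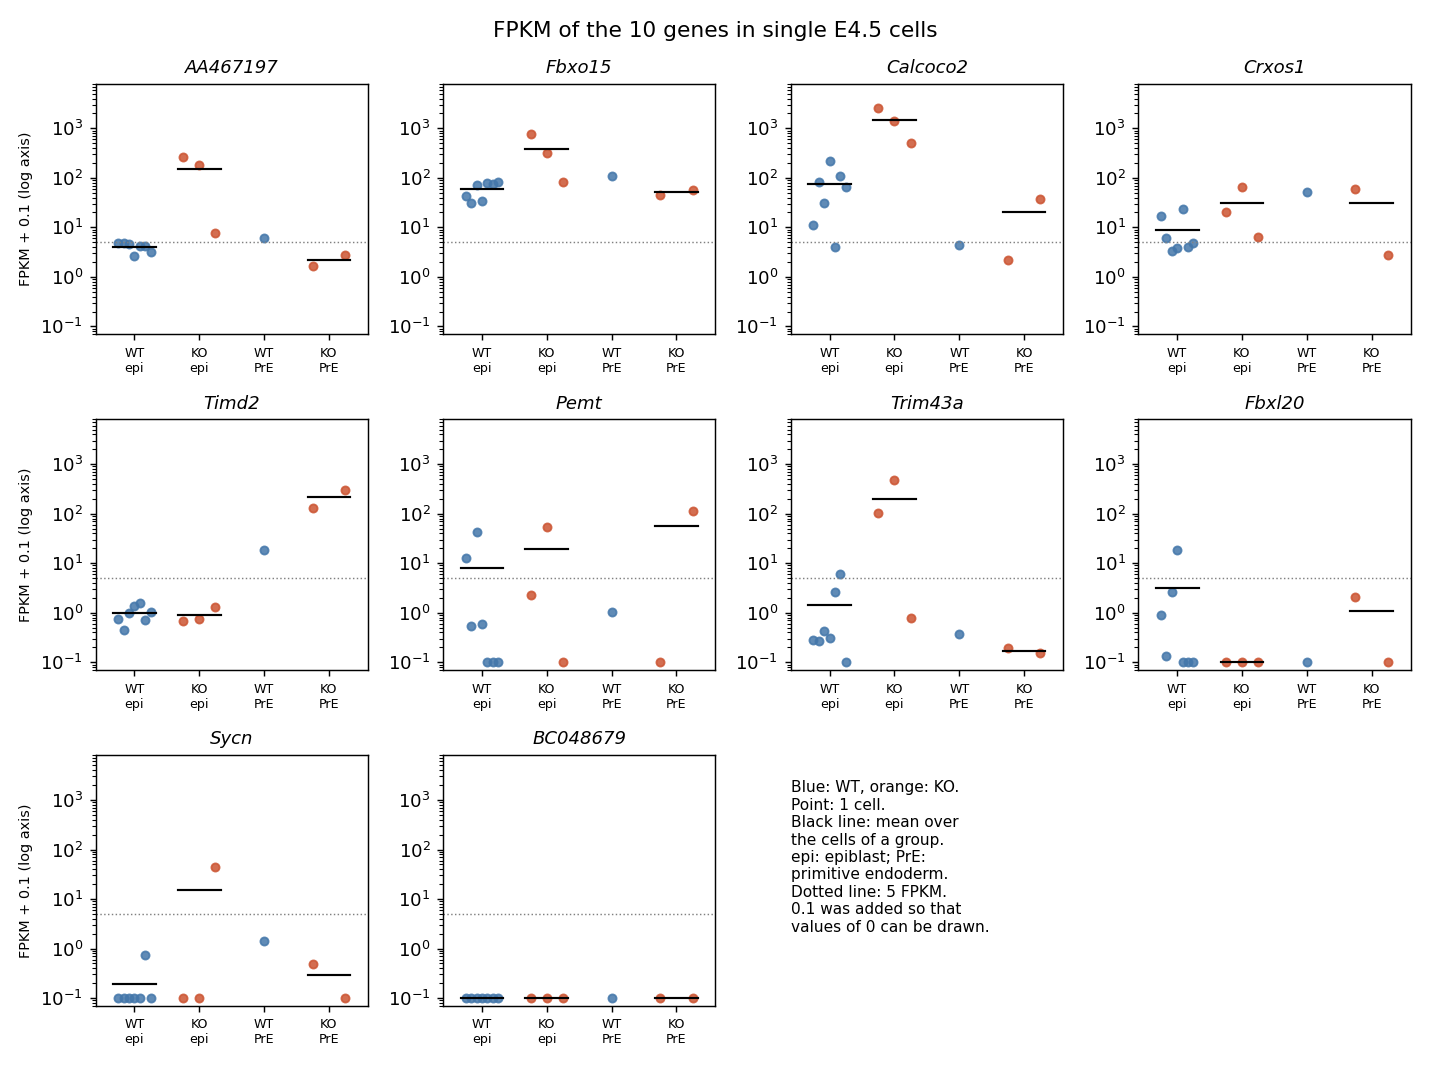
FPKM of the 10 genes in single E4.5 cells (log axis, FPKM + 0.1), 1 point per cell, for 7 WT and 3 KO epiblast cells and 1 WT and 2 KO primitive endoderm cells. AA467197, Calcoco2 and Fbxo15 lie higher in each KO epiblast cell than in any WT epiblast cell, whereas Timd2 overlaps.

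Markers in the same epiblast cells are given beside this. KO epiblast cells had 3025 to 3627 genes at 1 FPKM or more and WT cells 3877 to 4681, so fewer genes were seen in the KO cells. The summed FPKM of 19 trophectoderm markers was 830.1, 789.9 and 471.8 in the KO cells and 159.6 to 490.5 in the WT cells. Of that list, 11 to 13 markers were at 1 FPKM or more in a KO cell and 9 to 14 in a WT cell. Gata3 was at 1 FPKM or more in 3 of 3 KO and 2 of 7 WT cells. Cdx2, Elf5, Gata2 and Fgfr2 were under 1 FPKM in every cell of both genotypes except for Cdx2 in 1 WT cell. The sum of 12 epiblast markers was 1373 to 2794 in KO and 1647 to 2535 in WT cells. Of these 12, 7 to 8 were at 1 FPKM or more in a KO cell and 9 to 12 in a WT cell. Lefty2 was so in 0 of 3 KO and 7 of 7 WT cells, and Dnmt3b in 1 of 3 and 7 of 7. Nanog, Sox2, Pou5f1, Tdgf1 and Utf1 were so in every cell of both genotypes. The part of gene detection and of these markers in the members' values was not tested.

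Timd2 was higher in each primitive endoderm cell (1 WT and 2 KO) than in any epiblast cell, and Fbxo15 was present in both kinds. Timd2 read 132.4 and 298.3 FPKM in the 2 KO cells and 18.2 in the WT cell. Fbxo15 was at 44.8 and 57.5 in KO and 107.7 in WT. AA467197, high in KO epiblast cells 1 and 2, was at 1.57 and 2.68 in KO primitive endoderm and 5.99 in WT. Timd2 therefore had its E4.5 signal in cells labelled primitive endoderm, and AA467197 and Trim43a theirs in KO cells labelled epiblast.

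At E3.5 the KO ICM was called different from WT at 6 of the 10 genes (28.3% of all genes tested were called), in both directions. A high WT mean was required for a gene to be chosen, which favours lower KO values, so these counts are a description and falls are given without a p-value. The comparison used limma on log2(FPKM + 1), with p-values adjusted by Benjamini-Hochberg over the 5442 genes tested and called under 0.05. Called higher were 3 genes (3.44% of all genes tested were called higher), and called lower were 3 (24.8% of all genes). The median log2 difference was -0.34 over the 10 genes and -0.65 over all genes tested, so most genes lay below WT on this scale. KO ICM libraries had 3627 to 5135 genes at 1 FPKM or more against 5109 to 5717 in WT, and the part of this in the members' differences was not tested.

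AA467197 rose the most. It read 329.1, 519.3 and 963.8 FPKM in WT ICM (lowest, median, highest) and 700.7, 1293 and 3673 in KO ICM. The KO libraries were all above the WT mean, with libraries 1 and 6 far above the rest (3673 and 3466), and the groups overlap. The log2 difference was 1.42 (SE 0.34, limma adjusted p = 0.00760). Crxos1 rose by 0.73 (SE 0.19, limma adjusted p = 0.0123) and Sycn by 0.92 (SE 0.27, limma adjusted p = 0.0190), and in both genes all 7 KO libraries were above the WT mean. Without the 3 KO libraries that had the fewest genes (1, 4 and 6), none of these 3 was called, with differences of 0.88, 0.51 and 0.84 (limma adjusted p = 0.0570, 0.106 and 0.0696). After quantile normalization Crxos1 differed by 0.10 (limma adjusted p = 0.690) and Sycn by 0.58 (limma adjusted p = 0.131).

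Fbxl20 was the one member whose ICM groups did not overlap (3.33% of all genes lay wholly below WT and 1.29% wholly above). It read 82.9, 104.9 and 199.9 FPKM in WT and 10.8, 35.5 and 52.4 in KO (lowest, median, highest), a log2 difference of -1.93 (SE 0.31). Trim43a read 190.3 to 618.8 FPKM in WT and 31.7 to 220.0 in KO, a difference of -1.53 (SE 0.34). Fbxo15 differed by -0.76 (SE 0.25), and by -0.31 without the same 3 KO libraries.

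The remaining 4 genes were not called. The log2 difference was 0.70 for BC048679, -0.28 for Calcoco2, -0.87 for Pemt and -0.41 for Timd2. Calcoco2 was the most even of them, at 1558 to 2350 FPKM in WT and 1377 to 1860 in KO, and all 7 KO libraries lay below the WT mean. All 10 genes were thus still detected in KO ICM, with group means from 32.2 FPKM for Fbxl20 to 2220 for Crxos1, and the 10 together made up 1.84% to 3.39% of the summed FPKM of a KO library.

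From KO ICM to KO E5.5 epiblast all 10 genes fell (48.5% of all genes tested were called either way). Neither group was used to choose the genes. Of 5603 genes tested by limma, 8.67% were called lower and 39.8% higher, and the median log2 difference was -6.60 over the 10 genes against 1.08 over all genes. The ranges of the 2 groups did not overlap for any of the 10 (7.01% of all genes lay wholly lower), and 0 lay wholly higher (37.8%).

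The falls differed in depth. Sycn fell by 9.30 on the log2 scale (SE 0.34, limma adjusted p = 1.12e-09), Crxos1 by 8.07 (SE 0.32), Calcoco2 by 7.99 (SE 0.42), Timd2 by 7.67 (SE 0.37) and BC048679 by 7.24 (SE 0.39). The KO E5.5 mean of these 5 was at most 0.489% of the KO ICM mean. Pemt fell by 5.95 (SE 0.42) and Trim43a fell by 5.88 (SE 0.50), to 1.24% and 0.693%. The smallest falls were those of AA467197 (-4.37, SE 0.55, limma adjusted p = 5.16e-05), Fbxl20 (-3.75, SE 0.53, limma adjusted p = 0.000117) and Fbxo15 (-3.52, SE 0.41, limma adjusted p = 2.70e-05). Their KO E5.5 means were 5.09%, 4.42% and 8.36% of KO ICM, where the corresponding WT shares were 0.215%, 2.91% and 0.414%. Each of the 10 falls kept its call in all 20 alternatives of the fit. Looser cutoffs for choosing genes brought in genes that were not called lower: with 50 and 5 FPKM, 17 of 23 were called lower and 3 higher (Anxa2, AU018091 and Gjb5), and with 100 and 10 FPKM 15 of 16 were called lower.

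**Figure D3:**
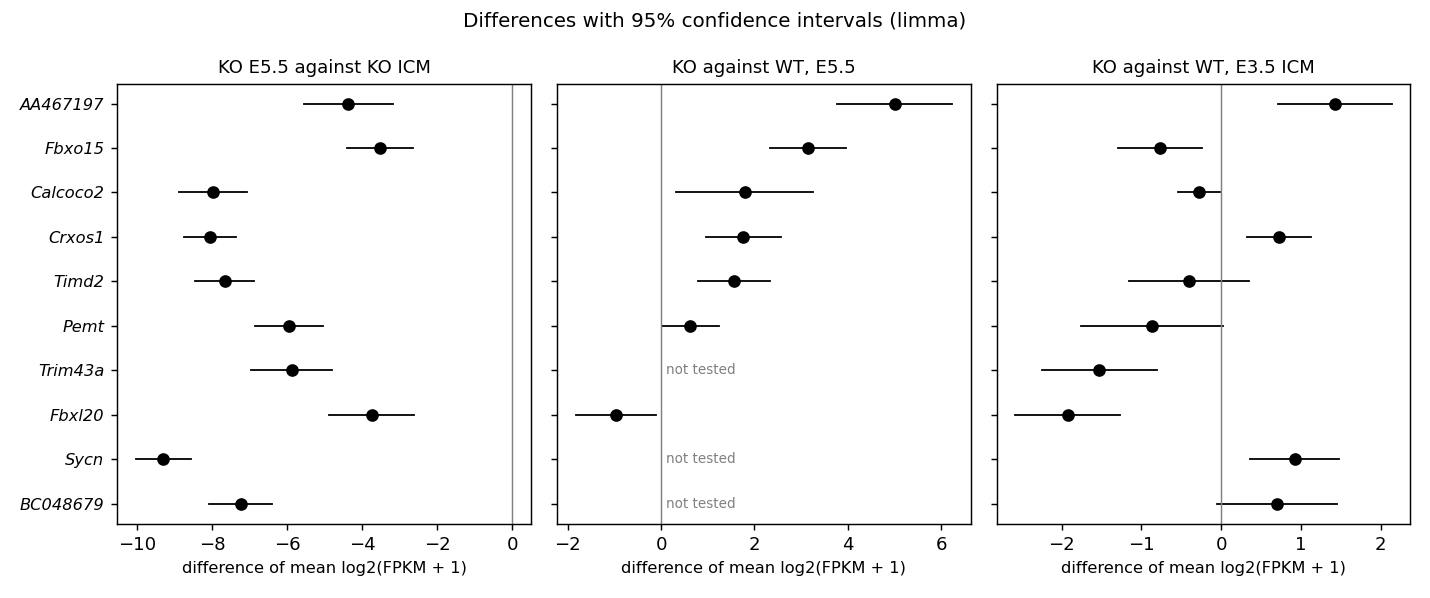
Log2 differences of the 10 genes on log2(FPKM + 1), with 95% intervals from limma, for KO E5.5 against KO ICM, KO against WT at E5.5 and KO against WT in ICM. AA467197 is at -4.37, 5.0 and 1.42 in this order, and BC048679, Sycn and Trim43a have no value at E5.5 because they were not tested.

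Set against WT at E5.5, the KO epiblast libraries held 2 of the genes at levels well over WT, AA467197 and Fbxo15. The WT values had been chosen to be low, so values, differences and counts are a description, no p-value is given for a member, and nothing is read from the counts. Of the 10 genes, 7 passed the filter of a mean of 1 FPKM over the 6 libraries, and BC048679, Sycn and Trim43a were not tested. Timd2 and Calcoco2, with WT means under 1 FPKM, passed only through their KO values, so their KO mean had to be the higher. Called higher were 4, Timd2 among them (15.6% of 5955 genes tested were called higher) and called lower 0 (18.5%), or 4 of 7 either way (34.1%). At an unadjusted limma p under 0.05, Calcoco2 and Pemt were higher as well and Fbxl20 was lower. The share of all genes at that threshold is not given here. Wholly above the WT range were 6 of the 7 (22.6% of all genes), and Fbxl20 lay wholly below it (26.6%).

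AA467197 read 0.689, 1.49 and 1.60 FPKM in WT and 185.3, 49.5 and 37.4 in KO libraries 1, 2 and 3. Library 1 was the highest, and the lowest KO value was still above each WT value. The log2 difference was 5.0 (SE 0.54), with a ratio of means of 72.0. This gene was thus above the WT mean in KO ICM, in the 3 KO E4.5 epiblast cells and in KO E5.5 epiblast, although it fell in KO embryos between E3.5 and E5.5. The miRNA of its locus was not measured here.

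Fbxo15, on chromosome 18 at 84934552 to 84981476, read 1.70, 2.22 and 3.61 FPKM in WT and 50.5, 18.6 and 26.9 in KO. All KO libraries were above the WT libraries, with a difference of 3.15 (SE 0.36) and a ratio of means of 12.8. In KO ICM it was at 382.7 ± 180.0 FPKM against 606.0 ± 130.6 in WT (SD, n = 7 each).

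A second set lay higher than WT at levels far under those of the ICM. Crxos1 read 1.83, 0.941 and 1.32 FPKM in WT and 10.6, 3.64 and 8.26 in KO (log2 difference 1.76, SE 0.36). Timd2 read 0, 0 and 0.333 in WT and 3.18, 1.09 and 2.90 in KO (1.56, SE 0.35). Calcoco2, the highest of the 10 per length in WT ICM, read 1.40, 0.194 and 0.969 in WT and 18.1, 2.11 and 2.99 in KO. The KO values were above the WT values and one library carried most of the difference, which was 1.80 (SE 0.64).

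The remaining 5 genes were low in both genotypes. Pemt lay wholly above the WT range and Fbxl20 wholly below it. Pemt read 4.68, 3.18 and 3.16 FPKM in WT and 6.92, 4.81 and 6.95 in KO, a difference of 0.63 (SE 0.27). Fbxl20 read 4.47, 3.01 and 2.73 in WT and 1.57, 0.237 and 2.46 in KO, and was the one member lower in the KO (-0.96, SE 0.39). Neither Pemt nor Fbxl20 was called. Trim43a, at 0 to 0.0955 FPKM in WT, was at 0.884, 0.332 and 1.26 in KO. Sycn was at 0.626, 0.842 and 0 in KO, BC048679 at 0, 0.660 and 0, and both are listed at 0 in all WT libraries. In KO E5.5 libraries 1, 2 and 3, 5, 2 and 4 of the 10 genes reached 5 FPKM.

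The CpG-rich promoters of AA467197 and Fbxl20 thus belonged to genes that went opposite ways in the KO, the first called higher at E3.5 and above the WT range at E5.5, and the second below the WT range at both stages. Of the 6 genes with at most 6 CpG sites, Crxos1, Pemt, Timd2 and Trim43a lay wholly above the WT range at E5.5. Sycn and BC048679 overlapped it. Of all genes tested at E5.5, 22.6% lay wholly above and 26.6% wholly below. The WT E5.5 values were chosen to be low, and Trim43a, Sycn and BC048679 had KO means under 1 FPKM. Nothing is therefore read by CpG content.

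Markers also differed between KO and WT at E5.5, and they go against the label of epiblast for the KO libraries. The summed FPKM of 19 trophectoderm markers was 4824, 2513 and 2727 in KO libraries 1, 2 and 3 and 455.0 to 593.5 in WT. In each KO library 18 of the 19 were at 1 FPKM or more. Of 18 tested, 15 were called higher and Cldn6 lower (15.6% and 18.5% of all genes), with a median of 4.30 against -0.07 for all genes. Gata3, a trophectoderm transcription factor, had a mean of 147.4 FPKM in KO and 0.427 in WT, and Elf5, a trophoblast stem cell factor, 31.7 against 0.0150.

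The sum of 12 epiblast markers was 305.7, 384.4 and 673.9 in the KO libraries and 1591 to 1767 in WT. Of these 12, 0 were called higher and 8 lower (15.6% and 18.5% of all genes), with a median of -1.95. Pou5f1, the pluripotency factor, had a mean of 9.84 FPKM in KO and 139.9 in WT. KO library 1 had the highest trophectoderm sum of the 3 and the highest AA467197, Fbxo15, Calcoco2, Crxos1 and Timd2 values. Pemt, Trim43a and Fbxl20 were highest in KO library 3, and Sycn and BC048679 in KO library 2. The part of these markers in the members' E5.5 values was not tested.

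**Figure D4:**
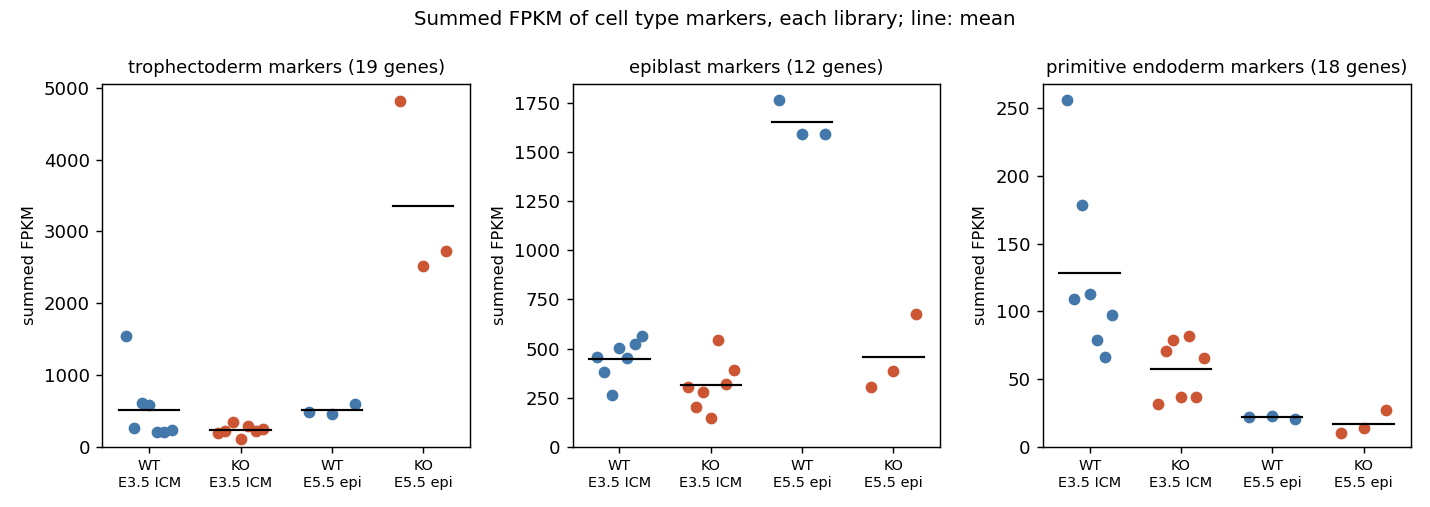
Summed FPKM of marker lists (linear axis from 0, primitive endoderm included) in each embryo library, with 1 point per library, for WT and KO ICM and WT and KO E5.5 epiblast. The trophectoderm sum of the 3 KO E5.5 libraries is 2513 to 4824, above 455.0 to 593.5 in WT, and their epiblast sum of 305.7 to 673.9 is below 1591 to 1767 in WT.

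Markers of other cells were low or mixed. The sum of 18 primitive endoderm markers was 9.85 to 27.2 FPKM in KO E5.5 and 20.4 to 22.5 in WT, and Gata4, Gata6, Sox17, Sox7, Foxa2 and Pdgfra were under 1 FPKM in all 6 libraries. Of 4 tested, 1 was called higher and 1 lower. The sum of 3 markers of extraembryonic ectoderm and ectoplacental cone was 135.7, 14.6 and 24.4 in KO and 7.47 to 8.75 in WT, with 1 of 2 called higher. The sum of 5 blood and maternal markers was 4.93 to 14.3 in KO and 9.60 to 19.9 in WT, with 1 of 3 called each way. In the ICM the trophectoderm sum was 102.3 to 342.7 in KO and 199.2 to 1546 in WT. There 0 of 15 were called higher and 5 lower (3.44% and 24.8% of all genes). The part of these markers in the members' ICM values was not tested.

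Naive pluripotency genes, the wider group to which Fbxo15 belongs by its use, split at E5.5. With Fbxo15 left out, 9 of 23 were tested, 4 were called higher and 1 lower, and the median was 0.41. Of all genes tested, 15.6% were called higher and 18.5% lower. Klf5, which is also a trophoblast factor, rose by 3.71 (limma adjusted p = 1.26e-05), Esrrb by 2.12 (limma adjusted p = 0.00302), and Il6st, a shared receptor of the LIF pathway, by 1.24. Nanog fell by 1.49. From KO ICM to KO E5.5, 3 of 12 were called higher and 5 lower (39.8% and 8.67% of all genes), with a median of -1.06.

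Among genes just outside the cutoffs, chosen by the same rule for named genes, the KO E5.5 values were as varied. Anxa2, a membrane-binding protein of epithelia, read 284.4, 180.0 and 119.3 FPKM in KO libraries 1, 2 and 3, against a WT mean of 2.80 and a KO ICM mean of 33.9. It rose from KO ICM to KO E5.5 (2.98, SE 0.89, limma adjusted p = 0.0140). Elf3, an epithelial transcription factor, had a KO E5.5 mean of 48.7 FPKM, a WT E5.5 mean of 5.49 and a KO ICM mean of 30.0, and was not called between the KO stages (limma adjusted p = 0.693). The other 4 were called lower between the KO stages. Creg1 went from a KO ICM mean of 483.8 FPKM to 66.5, B2m from 208.3 to 9.43, Wfdc15a from 252.9 to 1.46, and Stmn3 from 64.2 to 0 in all 3 KO E5.5 libraries.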

How the data were processed

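The deposited expression table gives FPKM per gene, computed by the authors. Libraries were SMART-seq2 with Tn5, per the labels' protocols. STAR 2.7.3, Bowtie2 2.3.5, Trim Galore 0.6.4 and mm10 stand in the submitters' processing notes with no role, so the tool behind FPKM is not given. Of 7186 lines, 4 with duplicated names were left out. They were identical in the 20 embryo columns and unlike in the 13 single-cell columns. Of the rest, 1 gene is not reported here and entered no count. FPKM gives no depth. Libraries shared a commonest ratio of low values in at most 6.02% of genes for embryos (190 pairs) and 18.8% for single cells (27 pairs, median 7.66%), so no reads were recovered.

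Embryo groups were compared with limma 3.58.1 (R 4.3.3; trend, robust) on log2(FPKM + 1), which understates changes of low genes, among genes whose mean reached 1 FPKM in the compared libraries. P-values were adjusted by Benjamini-Hochberg over all genes tested and called under 0.05. The code was tested on simulated data. Tables used Python 3.11.15 and pandas 2.3.3. P-values measure the spread between embryos.

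The 10 genes, the marker lists and the other gene lists were chosen with earlier results of these data known. All 10 were named, with the 3 genes nearest each cutoff, and list genes as examples. As alternatives, the pseudocount was 0.1 or 5, the filter 5 FPKM or none, and values were scaled by quantiles or by median ratios. Others were empirical Bayes without the robust option, a replicate block, 4 embryo groups in 1 fit, no KO ICM libraries 1, 4 and 6, leaving out each library, and other cutoffs. Promoters came from RefSeq (GRCm38.p6). The 4 methylation tables held 0 positions within 10 kb of the genes and were not used, and the 7 H3K4me3 and 2 ATAC libraries were left out here.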

Additional observations from a re-analysis of the deposited data

Results flagged for a closer look

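Single libraries or cells stood far from the rest of their group for 7 of 29 combinations of a gene and a group. The cutoff gives about 1 in 20 for normally spread values only. FPKM was used without logs, and Sycn was 0 in 6 of the 7 WT E4.5 epiblast cells. An excess over chance is therefore not shown. WT ICM library 4 had 199.9 FPKM of Fbxl20, and WT ICM library 6 had 3028 FPKM of Pemt. KO ICM library 4 had 1835 FPKM of Sycn. Among WT E4.5 epiblast cells, cell 4 had 18.4 FPKM of Fbxl20, cell 3 had 42.6 of Pemt, and cell 6 had 0.640 of Sycn and 6.09 of Trim43a.

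For 2 genes every KO library lay below the WT mean of log2(FPKM + 1) in the ICM and above it at E5.5. By the WT mean of FPKM itself, Pemt did so as well. The difference between the stages was not tested. The genes were chosen for a high WT ICM mean and a low WT E5.5 mean, which favours this pattern, so it is only described. Trim43a was at most 1.26 FPKM in the E5.5 libraries. The gap on the log2 scale was 2.3 for Trim43a (-1.53 and 0.77) and 2.07 for Calcoco2 (-0.28 and 1.80). In the main fit Calcoco2 was called at neither stage, and Trim43a was not tested at E5.5. Calcoco2 was called at E5.5 in 8 of 14 alternatives of the fit. Its WT E5.5 values had been chosen to be low, so nothing is read from these calls. After median ratio scaling the ICM difference of Calcoco2 turned to 0.29, and the opposite signs were then gone.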

How the results depend on the processing

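KO E5.5 against KO ICM: the count of 10 members lower held in all 20 alternatives of the fit, with 0 higher. Among genes chosen by other cutoffs, 17 of 23 were lower and 3 higher (50 and 5 FPKM), 15 of 16 lower (100 and 10), 10 of 11 (medians), 8 of 8 (200 and 5) and 7 of 7 (100 and 2). Leaving out 1 library gave 1845 to 2826 genes called, against 2716.

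KO against WT in ICM called 1539 genes, and 708 after quantile normalization, 877 after median ratio scaling, 406 without KO ICM libraries 1, 4 and 6, and 945 to 1874 without 1 library each (945 without WT library 1 and 987 without WT library 4). Members higher were 1 after quantile normalization, 4 after median ratio scaling and 0 without those 3 libraries, against 3. Members lower were 4 after quantile normalization, 2 after median ratio scaling, 2 without the 3, and 2 to 3 without 1 library each, against 3. After median ratio scaling Calcoco2 turned to 0.29 and Timd2 to 0.16. The median over all genes moved from -0.65 to 0.03 after quantile normalization and to -0.25 after median ratio scaling.

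KO against WT at E5.5 called 2031 genes, 701 with the 4 groups in 1 fit, and 1203 to 2184 without 1 library each (1203 without WT library 1, 1293 without WT library 2). A filter of 5 FPKM tested 2 members, both called higher (2, against 4). Every member has a WT E5.5 mean under 5 FPKM, so these 2 passed that filter only through their KO values. Their direction was thus fixed in advance, and nothing is read from it. Leaving out libraries gave 3 to 5 higher and 0 to 1 lower. The other cutoffs gave 23, 16, 11, 8 and 7 genes in the order above, against 10. The causes were not tested.

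Same-numbered samples correlated at -0.133 to 0.155 in ICM, -0.0225 to 0.118 at E5.5 and 0.00521 to 0.0451 between the KO stages, and correlated best with their own number in 2 of 7, 2 of 3 and 2 of 3 pairs, so the numbers were not taken as pairs. With the replicate block, calls numbered 1220, 1949 and 2439, and members called were 3 higher and 2 lower in ICM, 5 higher at E5.5, and 10 lower between the KO stages. FPKM gives no depth, so values near 0 carry no limit of detection.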

Other observations

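Of the other gene lists compared between KO and WT at E5.5, 6 of 9 tested germline genes under DNA methylation were called lower and 0 higher, with a median log2 difference of -1.38. Glutathione, redox and detoxification genes had 6 of 17 higher and 9 lower (median -0.79). Genes of endocytosis, lysosome and apical membrane had 4 of 9 higher and 1 lower (median 0.93), and genes of lipid, sterol and fatty acid metabolism 3 of 13 higher and 2 lower (median 0.28). Cell death and stress regulators had 3 of 12 called each way, and both tested genes of the oocyte and first cleavages were higher. Gsto1, a glutathione transferase, had a KO mean of 1570 FPKM and a WT mean of 34.5, and Gstt2, another, 3.08 against 46.2. All counts are from limma, at an adjusted p under 0.05 over all genes tested. Of all genes tested at E5.5, 15.6% were called higher and 18.5% lower.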
